A study of Mus musculus with 4 samples.

Results

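The genes described here encode the ionotropic and metabotropic receptors for glutamate, GABA, glycine and acetylcholine, together with *Lhfpl4*, whose product helps to place GABA-A receptors at synapses. They were picked out by gene symbol, a rule that holds no measured value but was set, with *Lhfpl4* added, when earlier results of these data were known, so that the members are not a blind sample of the array. They number 66 of the 29924 gene names on the array, with 102 of its 39429 probes. All 66 symbols are current in the RefSeq table of gene names. In 46 of the 66 genes at least 1 probe was well above background in 4 or more of the 8 channel measurements (4 arrays with 2 dyes each) and was tested. The other 20 genes, among them all 4 alpha subunits of the glycine receptor, were not.

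Transcripts were measured in whole cochlear ducts of NMRI mouse embryos at E14.5 on 4 Agilent 2-colour arrays, each comparing a mutant pool with a control pool of the same sex. The mutants (*Sox2-Tbx2LOF*) carried *Sox2(creERT2)* and *Tbx2(fl/fl)*, that is, a tamoxifen-dependent Cre recombinase expressed from *Sox2*, which is active in the prosensory domain, and 2 *loxP*-flanked alleles of *Tbx2*. The controls are labelled *Tbx2(fl/n.d.)*, their second allele not being determined, and were cre-negative according to the methods. The methods give the *Sox2* allele with Cre as heterozygous in the mutants. Effects of carrying it and of losing *Tbx2* therefore cannot be told apart here. The dams of both groups had received 4 mg tamoxifen orally at E12.5. Arrays 1 and 2 held female and arrays 3 and 4 male pools, and the dyes were swapped within each sex, Cy5 marking the mutant on arrays 1 and 3 and the control on arrays 2 and 4. The pools combined ducts of many embryos, and the spiral ganglion had been dissected away, so that most cell bodies of auditory neurons should be missing. According to the methods, the crosses for the mutants also introduced a fluorescent Cre reporter allele at *ROSA26*, whose presence in the control pools is not given in the labels.

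Glutamate opens the cation channels of the AMPA, kainate and NMDA classes and, more slowly, acts through the G protein-coupled metabotropic receptors. GABA-A and glycine receptors are chloride channels that silence mature neurons, and nicotinic receptors are cation channels opened by acetylcholine. In the mature cochlea, hair cells release glutamate onto afferent fibres, while cholinergic efferent fibres act on hair cells through the alpha9 and alpha10 nicotinic subunits. At E14.5 hair cells have not yet differentiated, and in many immature neurons GABA still depolarises the membrane.

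Of the 46 genes tested, 5 were higher and 6 were lower in the mutant at an adjusted p below 0.05, together 23.9% of those tested. The count of 11 became 5 without array 1 and 9 without array 2 (8 of them among the 11). It was 4 without array 3, 6 without array 4, and 5 with the deposited fold changes of the series. With Agilent's processed signals 7 members passed, 6 of them among the 11. Only 1 passed when the fit held no dye term, and 1 with separate channels and no block. The count for all genes, 1091 in the main setting, became 411, 1278, 445 and 695 without arrays 1 to 4. For the other settings it was, in the order above, 414, 616, 264 and 217. Among all 21042 genes tested 5.18% passed in either direction, 2.26% being higher and 2.92% lower. A value is a log2 ratio of mutant over control here, and an adjusted p is the Benjamini-Hochberg value of limma over all genes, or over all probes where a probe is named. All changes were small. No member reached a fold of 1.5 with an adjusted p below 0.05, as 0.442% of all genes did, although 41.3% of the members tested had an unadjusted p below 0.05, against 20.2% of all genes. Among the members shown here, the log2 ratios at the gene level ran from -0.27 for *Grik3* to 0.45 for *Gabra3*, and the median of all 46 was 0.02 beside 0.0024 for all genes. On all 4 arrays, 10 members were higher and 8 were lower, where the shares among all genes were 8.85% and 9.31%. In 5 of the 46 genes (10.9%) the signals of mutant and control pools did not overlap, against 4.28% of all genes. In the test across all 27963 probes, of which 3.99% passed (1.68% higher and 2.31% lower), 60 member probes were tested and 5 were higher and 6 lower, for 4 and 6 genes. The probes of *Gabra2*, *Gria4* and *Chrnb2*, which passed at the gene level, lay just outside the threshold there, with adjusted p over probes of 0.0545, 0.0509 and 0.0533.

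**Figure D1:**
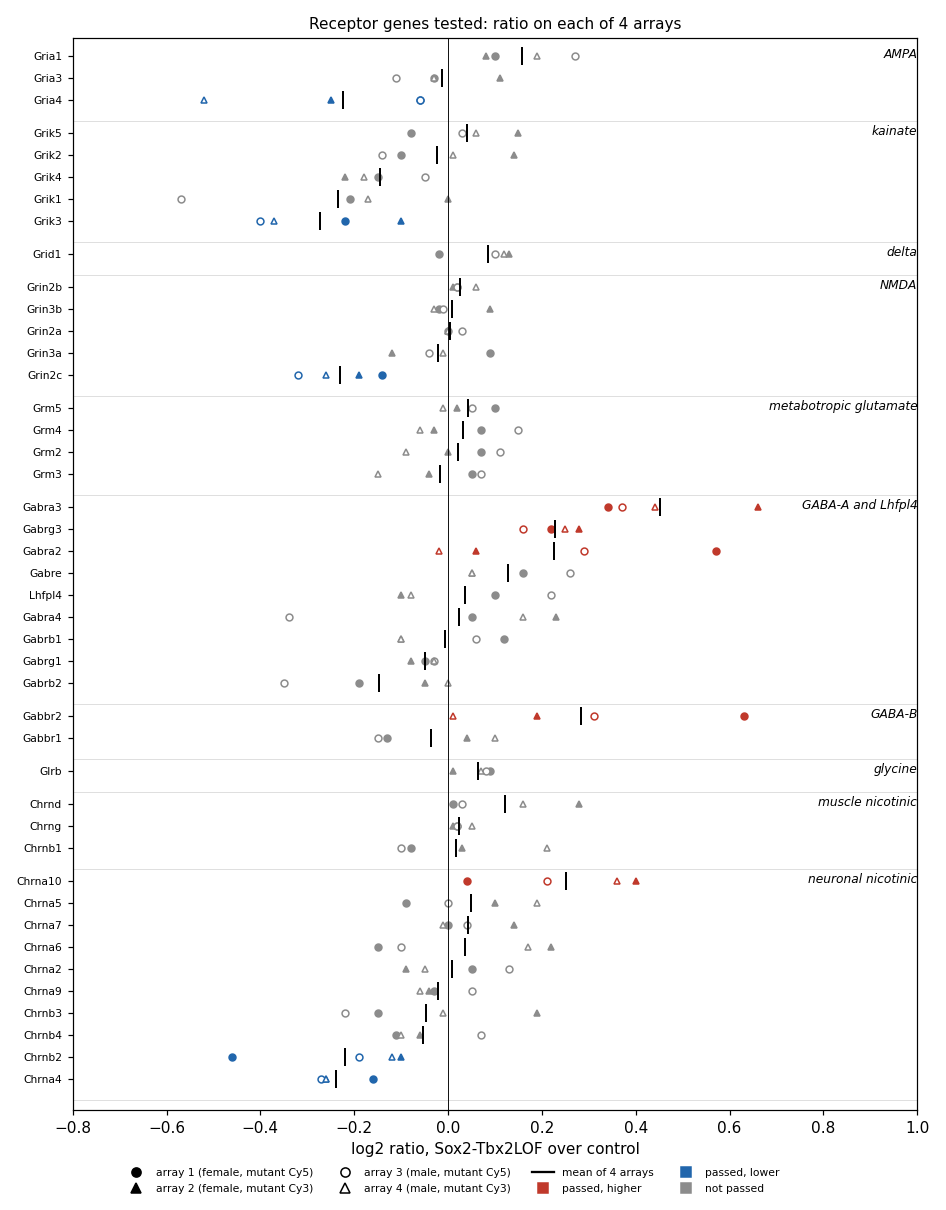
Log2 ratio of mutant over control for 43 of the 46 tested receptor genes (rows, by family) on each of the 4 arrays, with the mean as a black bar; circles are arrays with the mutant in Cy5, triangles arrays with the mutant in Cy3, and filled symbols are female pools. The plot holds 5 genes that passed as higher (red), 5 as lower (blue) and 33 that did not pass (grey), and *Gabra2* and *Gabbr2* show circles and triangles far apart.

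GABA-A receptors gave the largest rise. Of 17 genes in this family, *Lhfpl4* included, 10 were tested, of which 3 were higher and 1 was lower at the gene level. *Gabra3*, the alpha3 subunit, which is abundant in many immature neurons, was 1.37-fold higher in the mutant. Its log2 signal was 9.64, 9.36, 9.64 and 9.65 in control pools 1 to 4 and 9.98, 10.01, 10.01 and 10.09 in the mutant pools. Every mutant pool therefore lay above every control pool. The log2 ratios on arrays 1 to 4 were 0.34, 0.66, 0.37 and 0.44, with a fitted value of 0.45 ± 0.043 (SE, n = 4, adjusted p = 0.0011). This was the only member that passed under each of the 16 other settings of processing and sample choice in which it was tested, with values from 0.40 to 0.52. The probe, A_55_P1963463, lies on the minus strand of chrX:69678031-69678090 (mm9), and its first 30 bases are printed to identify the stretch that was measured.
Gabra3 A_55_P1963463: ctgtagaaattgtgttttaaaatgctttgg
The second probe of *Gabra3* was well above background in 1 of 8 measurements and was not tested. Within the X-chromosomal cluster of GABA-A subunits, *Gabre* had a log2 ratio of 0.13 ± 0.036 (SE, n = 4, adjusted p = 0.0923) and *Gabrq* was well above background in 2 of 8 measurements.

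*Gabrg3*, the gamma3 subunit, also rose, with 2 probes past the threshold in the main setting. The brighter probe, A_55_P2228097 (chr7:63971847-63971906, minus strand), had log2 signals of 9.61, 9.52, 9.53 and 9.62 in the control pools and of 9.84, 9.80, 9.69 and 9.86 in the mutant pools. The groups did not overlap, and the log2 ratio was 0.23 ± 0.035 (SE, n = 4, adjusted p = 0.011), a 1.17-fold rise. The other probe, A_55_P2053251, lies at chr7:63979783-63979842 on the same strand and does not overlap it. It gave log2 ratios of 0.17, 0.19, 0.20 and 0.11 on arrays 1 to 4 and passed narrowly (0.17 ± 0.036 SE, n = 4, adjusted p over probes = 0.0487), again with no overlap between the pools. The ends of these probes are printed as the pieces of sequence on which the rise was read.
Gabrg3 A_55_P2228097, first 30 bases: cgccctctgtatttgtatttggattcctat
Gabrg3 A_55_P2053251, last 30 bases: gtctattgggttggatacctgtatctttaa
The remaining 2 probes of *Gabrg3* were not tested, being well above background in 3 and 0 of 8 measurements. Its neighbour *Gabra5* on chromosome 7 was well above background nowhere. The rise of *Gabrg3* lost significance without array 1 (adjusted p = 0.0765) and without array 3 (adjusted p = 0.054), and the call of its second probe was lost on leaving out any 1 of the 4 arrays (adjusted p over probes from 0.115 to 0.203).

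*Lhfpl4* passed on 1 of its 2 tested probes. The brighter one, which stood for the gene, had log2 ratios of 0.10, -0.10, 0.22 and -0.08 and did not pass (0.04 ± 0.037 SE, n = 4, adjusted p = 0.655). The dimmer one, A_51_P271425, had the largest fall of any tested member probe. Its log2 signal was 9.66, 9.17, 9.54 and 9.53 in the control pools and 8.96, 8.78, 8.99 and 8.97 in the mutant pools, all of which were below the lowest control. The log2 ratios were -0.70, -0.39, -0.55 and -0.56, fitted as -0.55 ± 0.045 (SE, n = 4, adjusted p over probes = 6.23e-04), a 1.46-fold fall. Taking the mean of both probes gave a gene-level value of -0.26 (adjusted p = 0.00887). Both probes carry the same transcript in the array's annotation and both lie on the minus strand of chromosome 6, the dimmer at chr6:113118146-113118205 and the brighter at chr6:113120437-113120496, 2291 bases apart. Their first 30 bases are shown because the finding depends on which of them is read.
Lhfpl4 A_51_P271425, fell: atgtgtcttagatgttcactgtccaatttg
Lhfpl4 A_55_P2150309, did not pass: gggcccctccctcccccttagcagagagaa

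*Gabrb2* (beta2 subunit) had a log2 ratio of -0.15 ± 0.040 (SE, n = 4, adjusted p = 0.082), and *Gabra6* was well above background in none of the 8 measurements. Of the other tested GABA-A subunits, *Gabra4*, *Gabrb1* and *Gabrg1* lay between -0.05 and 0.02.

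**Figure D2:**
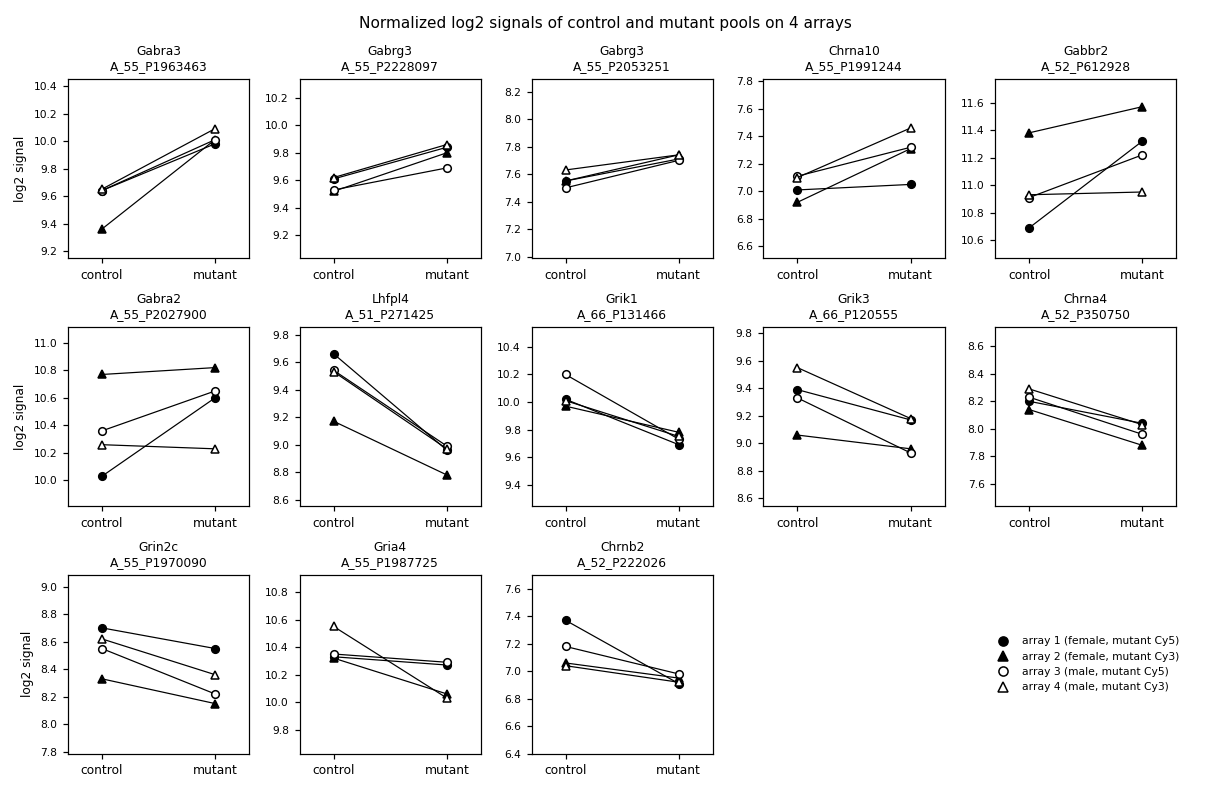
Normalized log2 signals (vertical axis, each panel with its own range of equal width) of control and mutant pools for 13 member probes described as passed, each line joining the 2 pools of an array. Control and mutant pools separate without overlap for *Gabra3*, both *Gabrg3* probes, *Lhfpl4*, *Grik1*, *Chrna4*, *Gria4* and *Chrnb2*. They overlap for *Gabbr2*, *Gabra2*, *Grik3*, *Grin2c* and *Chrna10*.

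*Gabra2* (alpha2 subunit) and *Gabbr2* (the second subunit of the G protein-coupled GABA-B receptor) passed as higher, with a pattern over the arrays that they shared with each other and with probes of many unrelated genes. *Gabra2* gave log2 ratios of 0.57, 0.06, 0.29 and -0.02 on arrays 1 to 4 (0.23 ± 0.050 SE, n = 4, adjusted p = 0.0447). *Gabbr2* gave 0.63, 0.19, 0.31 and 0.01 (0.28 ± 0.058 SE, n = 4, adjusted p = 0.0341). In both, the ratio was high where the mutant carried Cy5 and close to 0 on array 4, and mutant and control signals overlapped. The 60-base probes of both genes hold the triplet repeat GAAGAAGAAG, marked in capitals in the first stretch below, and the *Gabra2* probe ends in 2 copies of it.
Gabra2 A_55_P2027900, bases 31 to 60: aaaatttaGAAGAAGAAGgaGAAGAAGAAG
Gabra2 A_55_P2177351, bases 31 to 60: tTCAGCTCACTTCAATCATTGGAAACTACC

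The array has 101 probes with this motif, and 100 of them, for 98 gene names, were tested. Of these 63% passed, 63 being higher and 0 lower in the mutant, whereas 3.78% of the 27863 tested probes without it passed, 408 higher and 646 lower. The median log2 ratios of the 100 probes were 0.56, 0.02, 0.29 and -0.08 on arrays 1 to 4, close to the values of *Gabra2*, and their median fitted value was 0.25, with 80% of them between 0.02 and 0.27. The complementary motif CTTCTTCTTC occurred in 7 tested probes, of which none passed. The motif is the longest run that the *Gabra2* and *Gabbr2* probes share, was taken up after their values were seen, and was counted once per probe on the strand of the probe, with the complementary strand given apart.

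The repeat-free probe of *Gabra2*, A_55_P2177351, overlaps the first by 29 bases, given in capitals in its line above, and lacks the repeat. It gave log2 ratios of 0.10, -0.17, -0.33 and 0.31 (-0.02 ± 0.089 SE, n = 4, adjusted p over probes = 0.931), so that no change in either direction was found on it. The 2 other probes of *Gabbr2*, also without the repeat, were well above background in 0 of 8 measurements. When all probes with the motif were left out, a setting chosen after seeing the data, *Gabra2* was represented by the repeat-free probe and *Gabbr2* could not be tested, and 3 higher and 6 lower members remained. With the channels fitted separately and the array as a block, *Gabbr2* had an adjusted p of 0.0974 and *Gabra2* of 0.161. Leaving out array 1 or 2 ended the call of *Gabbr2* (0.204 and 0.24, adjusted p = 0.134 and 0.0622), and leaving out array 1, 2 or 4 that of *Gabra2* (0.156 to 0.244, adjusted p from 0.0665 to 0.142). For *Gabbr2* no probe without the repeat could be read, and the part of the repeat in both rises was not tested. *Gabbr1*, the ligand-binding partner of *Gabbr2*, had 3 tested probes with values between -0.04 and -0.01, none of which passed.

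**Figure D3:**
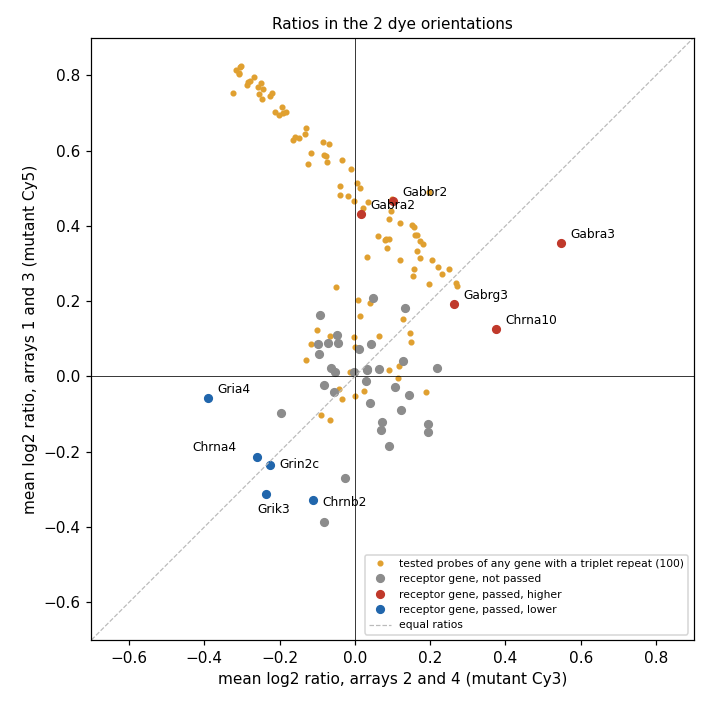
Mean log2 ratio on the arrays with the mutant in Cy5 (vertical) against that on the arrays with the mutant in Cy3 (horizontal) for 43 of the 46 tested receptor genes and for the 100 tested probes of any gene with the triplet repeat (orange). *Gabra2* (0.02 and 0.43) and *Gabbr2* (0.10 and 0.47) lie on the band of repeat-bearing probes, and *Gabrg3* (0.26 and 0.19) and *Grin2c* (-0.23 and -0.23) lie near the line of equal ratios.

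In the AMPA, kainate and NMDA classes the genes that passed in the main setting were lower in the mutant, with 1 of 3 tested AMPA, 1 of 5 kainate and 1 of 5 NMDA receptor genes at the gene level. *Grik3*, a kainate receptor subunit, had log2 ratios of -0.22, -0.10, -0.40 and -0.37 (-0.27 ± 0.053 SE, n = 4, adjusted p = 0.030), a 1.21-fold fall seen on all 4 arrays. Its probe (chr4:125391317-125391376, plus strand) had signals of 9.06 to 9.55 in the control and 8.93 to 9.18 in the mutant pools, which overlap. The call was lost without array 1, 3 or 4, with adjusted p between 0.0825 and 0.207.

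*Grik1*, another kainate subunit, passed on 1 of its 2 probes. That probe, A_66_P131466 (chr16:87912812-87912871, minus strand), read -0.33, -0.18, -0.47 and -0.26 on arrays 1 to 4 (-0.31 ± 0.040 SE, n = 4, adjusted p over probes = 0.00586), with the lowest control at 9.97 and the highest mutant at 9.78. Its call was lost without array 3 (-0.275, adjusted p over probes = 0.0566). The brighter probe, 16581 bases away, read -0.21, 0.00, -0.57 and -0.17 and did not pass (-0.23 ± 0.061 SE, n = 4, adjusted p = 0.0715). Both probes pointed the same way, and their mean passed (-0.27, adjusted p = 0.0186). The stretch identifies the probe with the lower spread.
Grik1 A_66_P131466, first 30 bases: ttccttatattagcaaaatgtacagacatt
The 3 other kainate subunits did not pass. *Grik4* had -0.15 ± 0.036 (SE, n = 4, adjusted p = 0.063) and was lower on 4 of 4 arrays, and *Grik2* and *Grik5* had -0.02 and 0.04.

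Among NMDA receptors, *Grin2c*, a glutamate-binding subunit, was lower on all 4 arrays (-0.14, -0.19, -0.32 and -0.26), with a fitted value of -0.23 ± 0.042 (SE, n = 4, adjusted p = 0.023), a 1.17-fold fall. The ratios were alike in both dye orientations, with means of -0.23 and -0.23, although the signals of the pools overlapped (8.33 to 8.70 in the controls, 8.15 to 8.55 in the mutants). It lost significance without array 3 (adjusted p = 0.126) and without array 4 (adjusted p = 0.0767), and the fit of separate channels with the array as a block gave an adjusted p of 0.0546. *Grin1*, the obligatory subunit of every NMDA receptor, was well above background in at most 3 of 8 measurements on either of its 2 probes and was not tested, and *Grin2d* in 1 of 8. The other 4 tested NMDA genes, *Grin2a*, *Grin2b*, *Grin3a* and *Grin3b*, lay between -0.02 and 0.03.

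*Gria4*, an AMPA receptor subunit, was lower with unequal ratios of -0.06, -0.25, -0.06 and -0.52 (-0.22 ± 0.048 SE, n = 4, adjusted p = 0.0414). Its second probe gave -0.10, -0.08, -0.21 and -0.22 (-0.15 ± 0.041 SE, n = 4, adjusted p over probes = 0.0925). The mutant pools lay below the control pools without overlap on the first probe (10.03 to 10.29 against 10.32 to 10.55), but leaving out array 1, 3 or 4 ended the call, with values from -0.155 to -0.223. *Gria2*, the subunit that makes AMPA receptors impermeable to calcium, was not well above background with either probe. *Gria1* had 0.16 ± 0.043 (SE, n = 4, adjusted p = 0.0803) and was higher on 4 of 4 arrays; it passed as higher with Agilent's processed signals and with median centring in place of loess. *Gria3* had -0.01.

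The delta receptors and the metabotropic glutamate receptors did not pass. *Grid1* had 0.09 ± 0.036 (SE, n = 4, adjusted p = 0.245). Of 8 metabotropic genes 5 were tested, among which *Grm2*, *Grm3*, *Grm4* and *Grm5* had values from -0.02 for *Grm3* to 0.04 for *Grm5*, and *Grm6*, the receptor of retinal ON bipolar cells, was not well above background in any measurement.

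**Figure D4:**
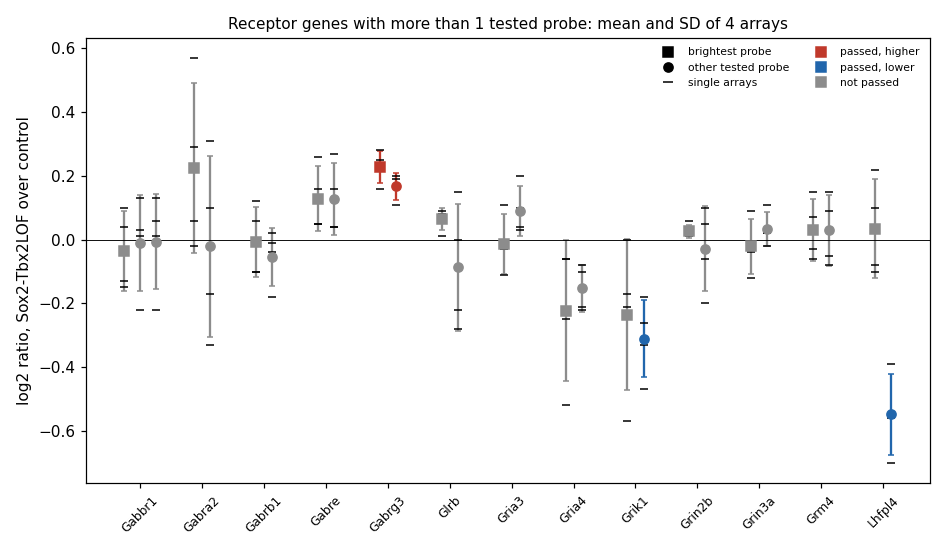
Mean log2 ratio (symbols) and SD (bars) over 4 arrays for each tested probe of the 13 receptor genes with more than 1 tested probe, with single arrays as dashes and the brightest probe as a square; colours give the result of the test across all probes. *Gabrg3* passed on both probes, *Grik1* and *Lhfpl4* on the dimmer probe alone, and the 2 probes of *Lhfpl4* differ most.

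Among nicotinic receptors, 10 of 11 neuronal and 3 of 5 muscle genes were tested, and *Chrna10* rose while the pair *Chrna4* and *Chrnb2* fell. *Chrna10*, the alpha10 subunit of the hair cell receptor, had log2 ratios of 0.04, 0.40, 0.21 and 0.36 (0.25 ± 0.040 SE, n = 4, adjusted p = 0.014), higher on 4 of 4 arrays. Its signal was dim, 6.92 to 7.11 in the control and 7.05 to 7.46 in the mutant pools, where the lowest signals well above background were between 6.52 and 6.62. With Agilent's own background subtraction the value was 0.58 (adjusted p = 0.038) and with the deposited fold changes of the series 0.63 (adjusted p = 0.0817), and without array 3 it was 0.21 (adjusted p = 0.0854). *Chrna9*, which forms the receptor together with *Chrna10*, had -0.02 ± 0.035 (SE, n = 4, adjusted p = 0.802). Its tested probe was dim too, at 6.92 to 7.02 in the control and 6.89 to 7.01 in the mutant pools. The second probe, 32932 bases away, carries another transcript in the array's annotation and was not well above background in any measurement. Whether that transcript changed could therefore not be read.

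*Chrna4* and *Chrnb2* encode the subunits of the most common nicotinic receptor of the brain. *Chrna4* had log2 ratios of -0.16, -0.26, -0.27 and -0.26 (-0.24 ± 0.036 SE, n = 4, adjusted p = 0.0112), with the mutant pools at 7.88 to 8.04 and the control pools at 8.14 to 8.29. The groups did not overlap, and only the fit without array 3 among those that leave out an array ended the call (adjusted p = 0.0784). *Chrnb2* had -0.46, -0.10, -0.19 and -0.12 (-0.22 ± 0.048 SE, n = 4, adjusted p = 0.0431), with mutant signals of 6.91 to 6.98 just below control signals of 7.04 to 7.37, again close to the limit of detection. Its value was -0.52 with Agilent's processed signals (adjusted p = 0.022), and -0.15 without array 1 (adjusted p = 0.134). Leaving out array 2 or array 4 also ended its call, with values of -0.22 in both.

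The 7 other tested neuronal subunits did not pass and lay between -0.05 for *Chrnb4* and 0.05 for *Chrna5*. Neither did the muscle receptor, in which *Chrnd* had the largest value, 0.12 ± 0.036 (SE, n = 4, adjusted p = 0.114), and in which *Chrne*, its adult subunit, was not well above background. In the glycine receptor, *Glrb* alone was tested (0.06 ± 0.034 SE, n = 4, adjusted p = 0.353), and its second probe gave -0.09 (adjusted p over probes = 0.296).

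Of 96 genes on 7 lists of transporters, enzymes, scaffolds, auxiliary subunits and related receptors, 77 were tested, and 2 were higher and 2 lower, a share close to the 5.18% of all genes that passed. *Gad1*, which makes GABA from glutamate, fell the most (-0.75, -1.03, -1.15 and -1.02 on arrays 1 to 4, or -0.99 ± 0.061 SE, n = 4, adjusted p = 1.56e-04). *Slc17a6*, the vesicular glutamate transporter VGLUT2, also fell (-0.35 ± 0.041 SE, n = 4, adjusted p = 0.00313). *Ly6h* (0.50 ± 0.041 SE, n = 4, adjusted p = 4.59e-04) and *Lypd1* (0.30 ± 0.041 SE, n = 4, adjusted p = 0.00675) rose; both encode small proteins of the Ly6 family that bind nicotinic receptors and restrain them. None of the 23 tested auxiliary and scaffold genes of ionotropic glutamate receptors passed, nor any of the 15 of inhibitory receptors, the 5 of acetylcholine synthesis and breakdown or the 4 muscarinic and rho receptors. Their median log2 ratios lay between 0.001 and 0.035, close to that of all genes.

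Markers of neurons went in both directions, with more lower than higher. Of 17 neuronal markers 14 were tested, 9 of which were lower and 2 higher, with a median of -0.37. The largest fall was in *Elavl3* (-1.08 ± 0.060 SE, n = 4, adjusted p = 1.01e-04). The 2 higher ones were *Syt1* (0.24, adjusted p = 0.00788) and *Ntrk3* (0.16, adjusted p = 0.0385). The summed signal of the tested markers was 28900 to 33400 in the mutant pools and 32500 to 37900 in the control pools, and the defining marker *Neurog1* was not well above background. Of 10 markers of Schwann cell precursors, all tested, 4 were lower and 1 higher, with summed signals of 175000 to 202000 in mutant and 180000 to 209000 in control pools. The lower ones include *Fabp7* (-1.03) and *Ngfr* (-0.74), which the paper also names for the inner compartment and for pillar cells, respectively. The part of neurons and Schwann cell precursors in the falls of *Gria4*, *Grik1*, *Grik3*, *Grin2c*, *Chrna4*, *Chrnb2* and *Lhfpl4* was not tested. In bulk RNA, fewer cells of a type and less RNA per cell cannot be told apart. Of 9 hair cell markers 2 were higher and none lower (summed signals of 8870 to 11800 in mutant and 7650 to 10100 in control pools), and of 15 markers of the otic epithelium and prosensory domain 3 were higher and 5 lower (517000 to 554000 and 448000 to 489000). In periotic mesenchyme (192000 to 213000 in mutant and 166000 to 187000 in control pools) and endothelium (35500 to 39600 and 33500 to 37700), 1 marker each was higher. No tested marker of melanocytes (9), skeletal muscle (7 of 14), blood (7) or macrophages (7) passed. Of the muscle markers, *Acta1*, *Actn2*, *Ckm*, *Myf5* and *Myf6* were not well above background.

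Checks of the labels gave mixed values. The CreERT2 fusion carries part of an oestrogen receptor, and *Esr1* is the mouse gene of such a receptor. Its probe was well above background on 4 of 4 arrays in the mutant and on none in the control. It was at least 4.24-fold higher when the control is set to the lowest signal well above background. Whether the probe matches the fusion was not analysed here. *Tbx2* had -0.12 ± 0.036 (SE, n = 4, adjusted p = 0.124), lower on 4 of 4 arrays, and *Sox2* 0.01 ± 0.055 (SE, n = 4, adjusted p = 0.935). Whether the *Tbx2* probe lies in the deleted part, or the *Sox2* probe in a part changed by the Cre allele, was not analysed here. Median signals were 263 to 292 in Cy3 and 496 to 563 in Cy5 over local backgrounds of 25 and 85 to 95, 69.2% to 72.0% of probes were well above background in a channel, and no gene spot was saturated. No gene of the whole array had a genotype effect that differed between the sexes at an adjusted p below 0.05 (limma), with 2.65% of genes and 4 of the 46 members at an unadjusted p below 0.05. Precision is limited throughout by there being only 4 arrays.

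**Figure D5:**
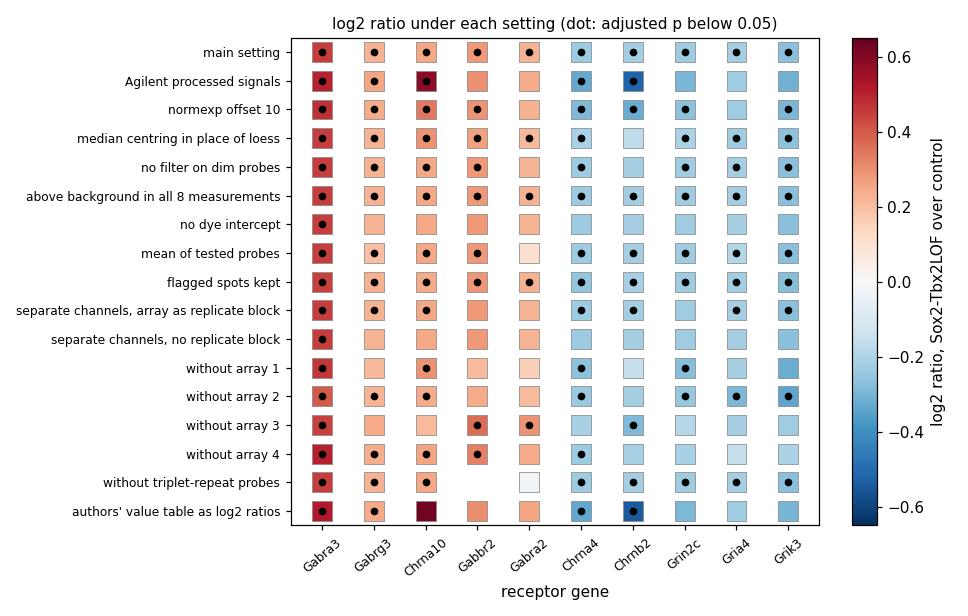
Log2 ratio (colour scale) of 10 receptor genes that passed, under the main setting and 16 others (rows); black dots mark an adjusted p below 0.05 and a missing square a gene without a testable probe. *Gabra3* passed in all 17 rows, while *Gabra2* kept its call in 4 of the 16 others and changed sign without repeat-bearing probes.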

How the data were processed

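The authors deposited scanner output of Feature Extraction (10.7.3.1), in which intensity values are the mean spot and median local background brightness in both dyes, unnormalized, next to Agilent's processed intensity. The deposited log10 ratios were not used. A series value table deposited by the authors holds a score, a signed fold change whose direction matched mutant over control (correlation with the ratios used here 0.882 to 0.913, column medians 1.00); its normalization is not given in the sources used here.

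Background was corrected with limma 3.58.1 in R 4.3.3 (normexp, offset 50), ratios were loess-normalized within arrays without control and flagged spots, and each probe was the mean of its 4 spots. Tested were probes that stood well above background in 4 or more of 8 channel measurements (27963 probes), the brightest standing for its gene. The model held genotype and a dye intercept; the significance analysis of the methods (SAM) was not repeated. Pools of an array were paired by hybridisation, and all arrays shared a slide and scan. Channel signals were loess- and Aquantile-normalized. Probe positions are those of the files (mm9); exon and UTR positions were not analysed here. The fitting step was tested on simulated data.

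Some members count in the totals but are not reported by name here. Members and lists were chosen with earlier results of these data known. Named were members that passed at gene or probe level, the largest value of each family, *Gabrg3*, *Lhfpl4*, the label checks and up to 3 passing genes of a list. Alternatives were other background corrections, normalizations, filters, probe rules, fits, the value table and arrays left out.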

Additional observations from a re-analysis of the deposited data

Results flagged for a closer look

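Values of single arrays were compared within each of 37 named genes, and in 3 of them 1 array stood apart from the others, as chance alone gives in about 1 of 20 groups. *Chrna4* had a log2 ratio of -0.16 on array 1, with the others between -0.27 and -0.26. *Pou4f1*, a transcription factor of sensory neurons, had -0.94 on array 1, with the others between -0.71 and -0.68. *Sox2* had -0.26 on array 3, with the others between 0.08 and 0.14. No named gene had female and male arrays that differed by the interaction test. In none did both female arrays lie on 1 side of 0 and both male arrays on the other. The means of *Sox2* were 0.08 on the female and -0.056 on the male arrays.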

How the results depend on the processing

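*Gabra3* passed in the same direction under 16 of 16 alternatives, *Chrna4* under 13, *Chrna10* and *Gabrg3* under 12, *Chrnb2*, *Grik3* and *Grin2c* under 9, *Gria4* under 8, *Gabbr2* under 8 of 15 and *Gabra2* under 4. Where counts moved, the cause was not tested. Against 1091 genes passed, with 5 members higher and 6 lower, Agilent's processed signals gave 616 genes (3 members lower) and 628 probes where 1117 had passed, omitting the dye intercept 264 (1 higher, 0 lower), and the fold changes deposited by the authors 414 (2 higher, 3 lower). Separate channels without the replicate block gave 217 genes (1 member higher, 0 lower), and with the array as replicate block 1266 genes (4 higher, 5 lower), losing *Gabbr2*, *Gabra2* and *Grin2c* and gaining *Gabre*. In both fits with 0 lower members *Gabra3* was the member that passed. Leaving out 1 array gave 411 to 1278 genes with 2 to 4 members higher and 1 to 6 lower, and 413 to 1435 probes with 2 to 4 member probes higher and 2 to 7 lower. Without the probes that hold the triplet repeat, a choice made after seeing the data, 3 members were higher and *Gabra2* turned to -0.021. The mean of all tested probes turned *Lhfpl4* to -0.26 and *Glrb* to -0.012. *Sox2*, at 0.012, turned to -0.017 with median centring and ranged from -0.073 to 0.096 without 1 array. Other counts, and the median of the members, kept within 1.5 times or the spread between arrays.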
